A study of Mus musculus with 17 samples.

Results

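Txnip (thioredoxin-interacting protein) and Arrdc4 (arrestin domain containing 4) are glucose-responsive members of the alpha-arrestin family of adaptor proteins. They are described here with 3 relatives, Arrdc1, Arrdc2 and Arrdc3, and with Mlx and Mlxip (also called MondoA), partners in the transcription factor complex that drives the glucose-responsive pair. Txnip and Arrdc4 were selected because their levels rose between fibroblasts and day 0 in these libraries, and the other 5 genes were added as relatives or regulators by name. All 7 were found by name among the 38734 genes of the table, and all 7 passed a filter at a mean of 1 FPKM (fragments scaled to transcript length and to the mapped fragments of the library). The cells were mouse embryonic fibroblasts (MEF) reprogrammed to induced pluripotent stem cells (iPSC), and all carried a cassette called OSKM that expresses Pou5f1 (Oct4), Sox2, Klf4 and Myc under doxycycline. The 3 genotypes were miR-203 WT; OSKM (WT), miR-203 KO; OSKM (KO), and ColA1_miR203; Rosa26rtTA; OSKM (KI), in which doxycycline also induces the microRNA miR-203. There were 17 libraries: 1 per genotype for MEF and for days 0, 4, 6 and 7, and 1 each of WT and KO iPSC. The labels give doxycycline at 1 µg/ml for every group, MEF included, and they do not give the medium or its glucose content for single stages. There were no replicates within a genotype and stage, so the genotypes stood in for samples of a stage and the stages for samples of a genotype.

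Cells read their glucose supply in part through a complex of Mlx with Mlxip or with its relative Mlxipl (ChREBP). Phosphorylated glucose moves the complex into the nucleus, where it binds carbohydrate response elements, pairs of E boxes, in promoters such as those of Txnip and Arrdc4. The encoded arrestins lower glucose uptake, Txnip by bringing glucose transporters in from the cell surface, and Txnip also binds and inhibits thioredoxin. Arrdc3 and Arrdc1 are adaptors that join membrane proteins to Nedd4 family ubiquitin ligases, Arrdc1 being best known for driving the budding of small vesicles from the plasma membrane. The MEF-to-iPSC change is known for a shift towards glycolysis.

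The promoters of the pair selected on the rise are shown because they carry the letters that the Mlx complex and its partner factors are known to read. Each line gives the 250 bases before the annotated start, 5′ to 3′ on the gene's strand, from RefSeq on GRCm38.p6. Capitals mark the motifs searched: CACGTG (an E box), 2 copies of CACGNG in one direction with 5 bases between them, and CCAAT or its reverse complement ATTGG. Txnip lies on the plus strand, with this window at chr3:96557707-96557956, and Arrdc4 on the minus strand, with its window at chr7:68749239-68749488.
Txnip: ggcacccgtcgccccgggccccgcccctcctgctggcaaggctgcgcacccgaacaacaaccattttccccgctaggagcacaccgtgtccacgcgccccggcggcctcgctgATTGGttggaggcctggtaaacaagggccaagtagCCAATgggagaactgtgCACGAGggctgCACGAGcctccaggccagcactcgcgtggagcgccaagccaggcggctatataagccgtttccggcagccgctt
Arrdc4: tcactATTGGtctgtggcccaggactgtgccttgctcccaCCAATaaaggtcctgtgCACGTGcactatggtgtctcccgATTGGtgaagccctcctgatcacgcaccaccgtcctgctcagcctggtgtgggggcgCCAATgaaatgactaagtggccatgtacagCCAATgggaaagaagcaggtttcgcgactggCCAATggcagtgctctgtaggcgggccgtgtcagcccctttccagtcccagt

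In Txnip the paired motif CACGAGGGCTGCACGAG ran from 85 to 69 bases before the start (chr3:96557872-96557888, plus strand), with 1 CCAAT upstream of it at 102 to 98 bases and 1 ATTGG at 137 to 133 bases. Of 27025 genes with a promoter of 300 bases in the same set, 15 (0.0555%) held the paired motif on either strand. Txnip was the only one of the 7 genes that did. Pairs in opposite directions, with other spacings or with other letters were not searched, so the share and the absences hold for this form only. Arrdc4 held 1 CACGTG, a palindrome that reads the same on both strands, at 193 to 188 bases before the start. CACGTG was also in the Mlx promoter, and in 8.09% of all genes. CCAAT was in 6 of the 7 genes, all but Arrdc1, and in 41.1% of all genes. Arrdc4 held 6 copies on both strands together, and 3.88% of genes held 3 or more. These matches describe the letters of the windows and are not measured binding sites.

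The microRNA that separates the genotypes is shown with its seed (bases 2 to 8) in capitals, as RefSeq gives it on the plus strand at chr12:112130927-112130948. A search for the DNA letters that pair with the seed, CATTTCA, in the 3′ untranslated regions of GENCODE M21, taking the longest per gene, found 1 site in Arrdc2 and 1 in Mlxip. None was found in the regions of the other 5 genes. Of 12225 genes searched the same way, 2106 (17.2%) had at least 1 site. The windows below are those 2 sites, with the pairing letters in capitals. They lie in the Arrdc2 exon at chr8:70835187-70835193 (minus strand) and the Mlxip exon at chr5:123454248-123454254 (plus strand), at bases 748 of 812 and 735 of 4419 of their regions.
miR-203-3p: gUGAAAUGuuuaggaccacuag
Arrdc2 site: cagggacttgcCATTTCAatggtctgaaga
Mlxip site: agtcgccatgcCATTTCAacatggccaggg

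The libraries differed in ways that bear on the genotype comparisons and on the stage comparisons. The KI libraries of days 4, 6 and 7 held Pou5f1 at 0.491 to 0.851 FPKM, although the labels give them the same cassette. On those days Pou5f1 was at 37.4 to 266 FPKM in WT and 255 to 954 in KO. It was at 0.216, 1.31 and 0.0387 FPKM in WT, KO and KI MEF, and at 0.235, 0.910 and 0.960 at day 0, although the labels give doxycycline there too. Mir203 was at 5470 to 7903 FPKM in the KI libraries of days 4, 6 and 7, at 569 in KI MEF and at 185 in KI day 0. All WT and KO libraries listed it at 0, which gives no check of the knockout. Xist was at 46.9 and 48.0 FPKM in WT MEF and WT day 4 and at 3.23 or less in the other 15 libraries. Ddx3y was at 0.0179 to 2.74 FPKM in WT MEF, day 4 and iPSC and at 14.5 or more in the others. The WT libraries therefore cannot be taken as stages of 1 culture. Their stage steps, MEF to day 0 included, also differ in these genes. All 12 fibroblast markers were at 1 FPKM or more in every library, iPSC included. Their sum was 11514 and 7975 FPKM in KO at days 6 and 7 against 25982 and 24019 in WT, and 1414 and 859 in WT and KO iPSC. The 12 pluripotency markers summed to 4412 and 5213 FPKM in iPSC. At days 4 to 7 the 12 macrophage markers summed to 1447 to 4276 FPKM in WT, 1955 to 2270 in KI and 43.3 to 123 in KO. The 11 epithelial markers summed to 637 and 1635 FPKM in KO at days 6 and 7, against 21.5 and 69.5 in WT. In bulk RNA, fewer cells of a type and less RNA per cell cannot be told apart. The FPKM sum ran from 510501 to 690770 per library, and low values placed the relative depths between 0.920 and 1.06 of WT MEF.

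Txnip (ENSMUSG00000038393, GRCm38 chr3:96557957-96561883) was low in fibroblasts and high at every later stage. The WT, KO and KI libraries of MEF had 3.34, 1.25 and 2.28 FPKM. Those of day 0 had 31.7, 25.7 and 26.6 FPKM. No MEF library came near a day 0 library. The day 0 level was 9.50 times the MEF level in WT, 20.5 times in KO and 11.6 times in KI. On the log2(FPKM + 1) scale the mean difference was 3.18, at percentile 99.7 of all genes. This rise is what selected the gene, so it is a description with no test, and over all genes 0.0492% were called between day 0 and MEF. Txnip then held its level: 32.3, 26.6 and 38.0 FPKM in WT, KO and KI at day 4, and 45.0, 25.8 and 35.2 at day 6. It stood at 51.3, 43.9 and 26.4 at day 7, and at 30.8 and 54.2 in WT and KO iPSC. Over the 14 libraries after MEF the range was 25.7 to 54.2 FPKM with a median of 32.0, a span of 2.11-fold, and the ranges of stages next to each other in level overlapped from day 0 onwards. Gm15441, an antisense RNA annotated over Txnip, was at 1.00 FPKM or less in all 17 libraries.

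Arrdc4 (ENSMUSG00000042659, chr7:68736995-68749241) showed the same step at a lower level. Its FPKM was 1.28, 0.928 and 0.548 in WT, KO and KI MEF and 5.61, 6.02 and 6.79 at day 0. The day 0 level was 4.38 times the MEF level in WT, 6.50 times in KO and 12.4 times in KI. The difference was 1.91 on the log2(FPKM + 1) scale, at percentile 99.1 of all genes, and it too selected the gene. Arrdc4 was at 4.97, 4.34 and 7.21 FPKM at day 4 and at 7.38, 5.72 and 7.83 at day 6. Day 7 gave 7.35, 15.3 and 8.87 for WT, KO and KI, and iPSC gave 6.13 and 5.36 for WT and KO. The KO library of day 7 stood highest of the 14 libraries after MEF, and KO day 4, at 4.34, stood lowest.

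**Figure D1:**
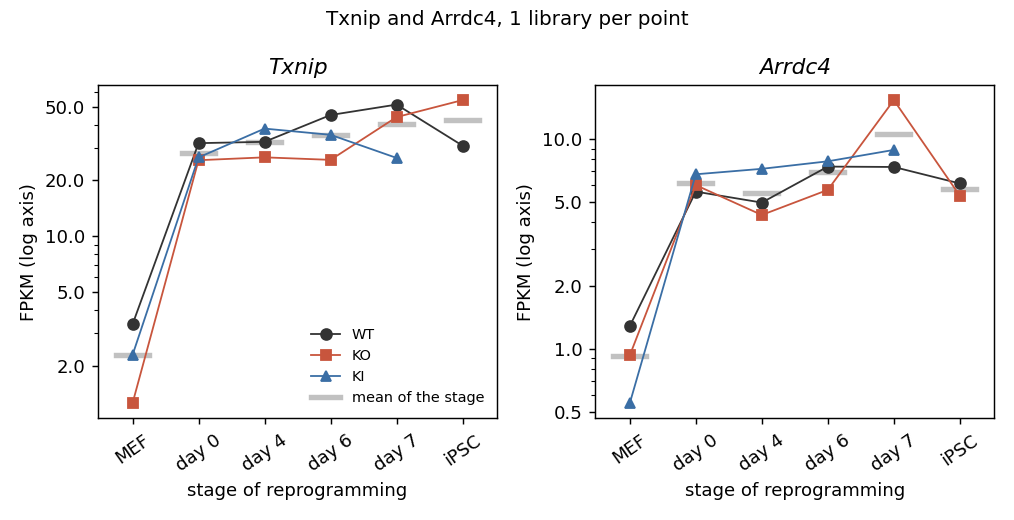
Levels of Txnip and Arrdc4 (FPKM, log axis) by stage, with 1 point per library, lines joining the libraries of a genotype and grey bars for the mean of a stage. Txnip lay at 1.25 to 3.34 FPKM in MEF and at 25.7 to 54.2 afterwards, and Arrdc4 at 0.548 to 1.28 and at 4.34 to 15.3.

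The relatives and regulators did not share the step. The day 0 level over the MEF level was 0.536 to 0.913 for Arrdc1, 0.701 to 1.62 for Arrdc2, 0.684 to 0.961 for Arrdc3, 0.936 to 1.21 for Mlx and 0.885 to 0.954 for Mlxip over the 3 genotypes. Their differences ran from -0.42 to 0.11 on the log2(FPKM + 1) scale, between percentiles 6.76 and 71.7 of all genes. These 5 were set beside the pair with that rise in view, so the contrast is given without a test.

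Both genes of the pair were low in MEF, and after that their levels followed each other less closely. For a ranking by likeness, 12415 genes with a mean of 1 FPKM or more were used. Names that start with Gm and a digit or end in Rik were left out. By Pearson correlation of log2(FPKM + 1) over the 17 libraries, Arrdc4 was the closest of these to Txnip (r = 0.911, rho = 0.554) and Txnip the closest to Arrdc4. Both were selected for the rise out of MEF, and a shared step out of MEF raises this r, so the rank is no independent sign of a common course. The libraries form separate groups, 3 of MEF and 14 of later stages, and over the 14 alone r was 0.31 and rho 0.204. The points share genotypes and stages of a time course and are not independent, so these are descriptions. The level of Txnip over that of Arrdc4 was 1.35 in KO MEF, 2.61 in WT MEF and 4.16 in KI MEF, and it was between 2.86 and 10.1 in the later libraries. It was lowest among those at day 7 in KO (2.86) and KI (2.98), and highest in KO iPSC.

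**Figure D2:**
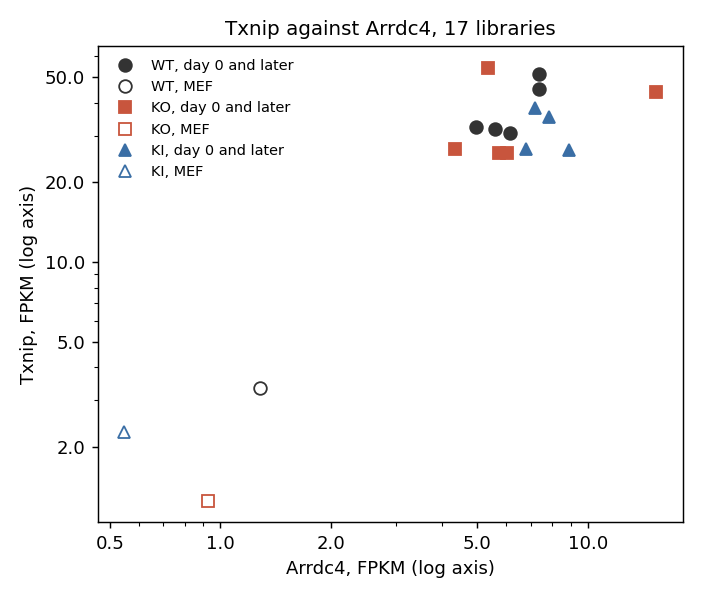
Txnip against Arrdc4 (FPKM, both axes log), 1 point per library, open symbols for MEF. The 3 MEF libraries sit apart at the lower left, and among the other 14 the points spread without a clear line (r = 0.31).

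The genes next closest to Txnip over the 17 libraries were Ifi30 (a lysosomal thiol reductase, r = 0.864), Gnptg (a subunit of the enzyme that tags lysosomal hydrolases, 0.816), Slc30a1 (a zinc exporter, 0.801) and Ddb2 (a DNA damage recognition protein, 0.799). For Arrdc4 they were Ifi30 (0.866), Mfsd7c (a membrane transporter family member, 0.810), Scarb2 (a lysosomal membrane protein, 0.803) and Slc30a1 (0.783). Ifi30 ran from 36.9 to 42.9 FPKM in MEF, from 54.9 to 67.4 at day 0, and up to 85.5 later. Its step was in the same libraries as that of the pair but smaller. Scarb2 went from 24.2 to 26.9 FPKM in MEF to 30.1 to 33.6 at day 0. Within the 14 later libraries r with Txnip was 0.177 for Ifi30, 0.214 for Gnptg, 0.363 for Slc30a1 and 0.381 for Ddb2. With Arrdc4 it was 0.374 for Ifi30, 0.816 for Mfsd7c, 0.514 for Scarb2 and 0.344 for Slc30a1. These genes were picked over 17 libraries that include the 14, so the values are descriptions.

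Of the other 5 genes, Arrdc2 had an r of 0.612 with Txnip over the 17 libraries (rank 213), Arrdc3 0.501, Mlx 0.216, Mlxip 0.123 and Arrdc1 -0.068. With Arrdc4 the values were 0.536 for Arrdc3, 0.472 for Arrdc2, 0.22 for Mlx, 0.0599 for Arrdc1 and -0.0227 for Mlxip.

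After day 0 neither gene of the pair was called in any comparison that could be tested. From day 4 to day 7, 0 of the 7 genes were called by limma (0.0211% of all genes, 1025 genes at an unadjusted p under 0.05). Arrdc4 differed by 0.79 ± 0.26 (log2, SE, over 3 genotypes, adjusted p = 0.513), with the day 7 library higher in 3 of 3 genotypes. Txnip differed by 0.28 ± 0.31 (adjusted p = 0.899), higher at day 7 in WT and KO and lower in KI. Between day 7 and iPSC (49.7% of all genes called) Arrdc4 differed by -0.69 ± 0.30 (adjusted p = 0.0723), with a lower level in iPSC in both WT and KO. With upper-quartile scaling this difference was -0.86 with an adjusted p of 0.0277, and the median of all genes in this comparison moved from 0.114 to -0.0466. Txnip differed by 0.03 ± 0.35 between day 7 and iPSC (95% interval -0.74 to 0.80, adjusted p = 0.941). Its WT level went from 51.3 to 30.8 FPKM and its KO level from 43.9 to 54.2.

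Neither miR-203 genotype moved the pair past the threshold. In MEF and day 0, 0 of the 7 genes were called in KO against WT (0.0506% of all genes, 869 at an unadjusted p under 0.05). None was called in KI against WT (0.289%, 559 genes). The Txnip level was lower in KO than in WT at both early stages, with a difference of -0.62 ± 0.31 (adjusted p = 0.892). Over days 4 to 7 (KO against WT, 14.7% of all genes called, median of all genes 0.168) the Txnip level was lower in KO at 3 of 3 stages, with a difference of -0.42 ± 0.26 (adjusted p = 0.268). In KI against WT (2.44% called, median of all genes -0.160) the Txnip difference was -0.35 ± 0.26 (adjusted p = 0.399). Arrdc4 was higher in KI than in WT at 3 of 3 late stages, by 0.26 ± 0.28 (adjusted p = 0.569). The macrophage and epithelial marker sums given above differ between the genotypes over the same days, and their part in these values was not tested. Whether the genotype difference changed between early and late stages was tested directly, and 0 of 7 genes were called for KO (0.0795% of all genes, 3084 at an unadjusted p under 0.05) and 0 of 7 for KI (0.0723%, 1146 genes).

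Arrdc2 and Arrdc3 rose later than the pair. Arrdc2 (ENSMUSG00000002910, chr8:70835129-70839720) was at 1.18, 1.05 and 0.819 FPKM in WT, KO and KI MEF and at 0.830, 1.15 and 1.33 at day 0. It was at 3.49, 3.16 and 2.45 at day 4, above every earlier library, a gap whose share over all genes was not counted. At days 6 and 7 it lay between 2.22 and 3.22 FPKM, and the iPSC libraries were at 6.54 (WT) and 6.82 (KO). By limma Arrdc2 rose by 0.94 ± 0.17 (log2, SE) from day 0 to day 4, with an adjusted p of 0.00228. Without the WT libraries the difference was 0.76 and did not pass (adjusted p = 0.0736). It rose by 0.98 ± 0.19 from day 7 to iPSC (adjusted p = 0.00173), and over MEF to day 7 by 0.91 ± 0.17 (adjusted p = 0.00305). Because 1 is added before the logarithm, these values understate the fold change of a gene at this level. Arrdc2 was the one called gene among the 7 between day 7 and iPSC, where 49.7% of all genes were called.

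Arrdc3 (ENSMUSG00000074794, chr13:80883384-80896042), an adaptor for membrane receptors and an integrin, was higher from day 4 onwards than at day 0. Its FPKM was 6.20, 6.97 and 7.50 in WT, KO and KI MEF, and 4.24, 6.70 and 6.67 at day 0. It was 7.01, 11 and 19 at day 4, 11.3, 18.0 and 15.2 at day 6, and 13.7, 31.2 and 16.8 at day 7. In iPSC it reached 24.8 in WT and 31.8 in KO. WT was the lowest genotype at every stage before iPSC. Arrdc3 rose by 0.88 ± 0.25 from day 0 to day 4 (adjusted p = 0.0258), so that 2 of the 5 genes tested in that step were called, against 22.3% of all genes. That call was lost in 6 of 12 alternatives, among them leaving out the WT libraries (adjusted p = 0.182), the KO libraries (0.0554) or the KI libraries (0.181). From MEF to day 7 Arrdc3 rose by 1.37 ± 0.25 (adjusted p = 0.00291), again with Arrdc2 the called genes, 2 of 5 against 21.4% of all genes. Without the WT libraries neither was called (adjusted p = 0.0572 for Arrdc2 and 0.0823 for Arrdc3). The steps from day 4 to day 7 (0.71 ± 0.25, adjusted p = 0.541) and from day 7 to iPSC (0.60 ± 0.28, adjusted p = 0.0963) did not pass.

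Arrdc1 (ENSMUSG00000026972, chr2:24925352-24935252) followed neither course. It was at 10.7, 10.3 and 14.9 FPKM in MEF, 8.36, 9.44 and 7.96 at day 0, and 11.9, 9.51 and 9.86 at day 4. Day 6 gave 8.60 for WT, 17.5 for KO and 7.19 for KI, and day 7 gave 15, 30.3 and 7.35. In iPSC it was back at 7.35 and 8.17. The KO libraries of days 6 and 7 were the highest of all 17. The difference from day 0 to day 4 was 0.25 ± 0.36 (adjusted p = 0.684) and from day 4 to day 7 0.50 ± 0.36 (adjusted p = 0.818), which became -0.03 without the KO libraries. From day 7 to iPSC it was -1.007 ± 0.41 (adjusted p = 0.0611). That difference passed with upper-quartile scaling (-1.17, adjusted p = 0.0141), with quantile normalization (-1.13, adjusted p = 0.0168) and without the KI libraries (-1.35, adjusted p = 0.0254).

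**Figure D3:**
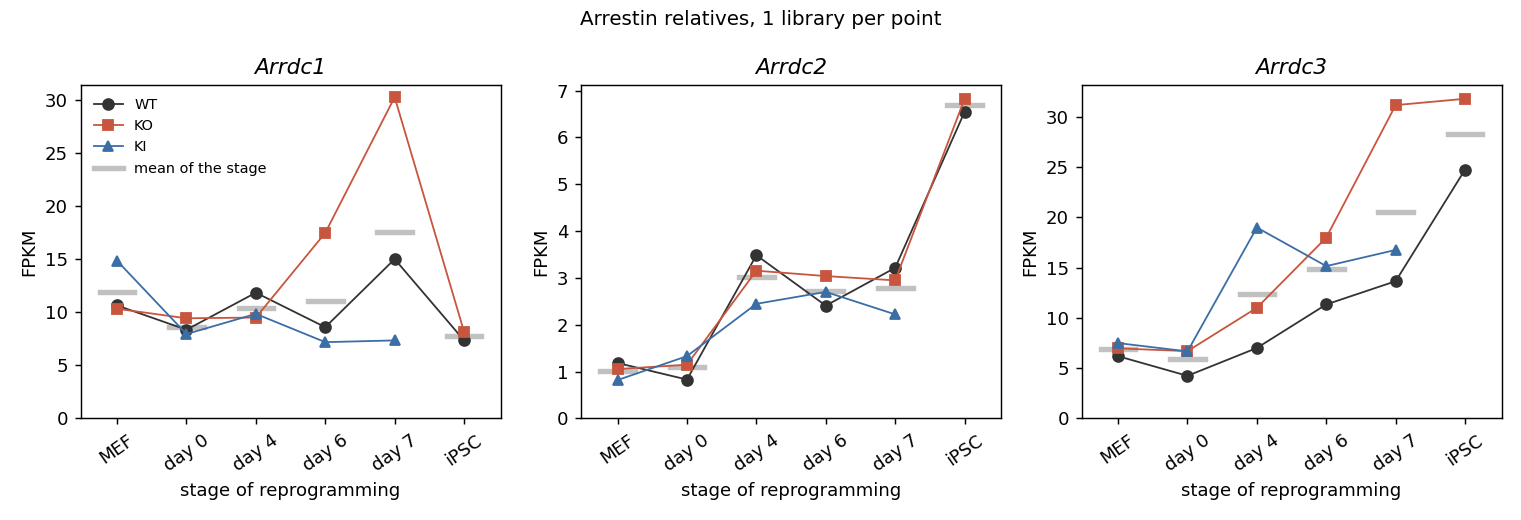
Levels of Arrdc1, Arrdc2 and Arrdc3 (FPKM, linear axes from 0) by stage, 1 point per library, grey bars for the mean of a stage. Arrdc2 stepped up at day 4 and again in iPSC, Arrdc3 ran from 4.24 FPKM in WT day 0 to 31.8 in KO iPSC, and Arrdc1 peaked in KO at day 7 at 30.3.

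Over days 4 to 7 none of the 3 relatives was called between genotypes, against 14.7% of all genes in KO and 2.44% in KI. Only Arrdc3 in KI had values that did not overlap those of WT, and the share of all genes without overlap was not counted. Arrdc3 was higher than WT at 3 of 3 stages in KO (0.78 ± 0.26, adjusted p = 0.0781) and at 3 of 3 stages in KI (0.66 ± 0.26, adjusted p = 0.171). Its 3 late KI values were 15.2 to 19 FPKM and its WT values 7.01 to 13.7. The KO and KI comparisons share the WT libraries. Arrdc1 differed by 0.54 ± 0.33 in KO (adjusted p = 0.271) and by -0.47 ± 0.33 in KI (adjusted p = 0.378). Without the day 4 libraries the KO differences were 0.96 for Arrdc1 (adjusted p = 0.016) and 0.88 for Arrdc3 (adjusted p = 0.00708). In that fit 4 of the 7 genes were called, Mlx and Mlxip included. It also called 7705 of 13738 genes in all, so the count is near the share of all genes.

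The proteins of the 5 arrestins are close in length, from 397 residues in Txnip to 434 in Arrdc1, by translation of the longest GENCODE M21 coding sequence of each gene. Each holds 2 PY motifs (2 prolines, any residue and a tyrosine), the sequence that WW domains of Nedd4 family ligases bind. They start at residues 332 and 376 in Txnip, 347 and 392 in Arrdc4, 346 and 391 in Arrdc3, 339 and 385 in Arrdc2, and 401 and 414 in Arrdc1. In global alignments identity, as a share of the shorter protein, was 43.1% between Txnip and Arrdc4, 41.3% between Txnip and Arrdc3, and 52.2% between Arrdc4 and Arrdc3. Arrdc2 and Arrdc3 shared 52.3%, and Arrdc1 shared 21.9% to 29.0% with the others. Arrdc4, which rose with Txnip, was thus closer in sequence to Arrdc3, which did not step up at day 0. Another relative, Arrdc5, was listed at 0 in 16 libraries and at 0.0639 FPKM in KO iPSC.

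Mlx (ENSMUSG00000017801, chr11:101087277-101092207), the shared partner of the complex, was the one gene of the 7 called between genotypes. Its FPKM was 32.6, 25.4 and 25.7 in WT, KO and KI MEF and 30.5, 30.7 and 28.7 at day 0. It was 36.0, 39.3 and 22.3 at day 4, 28.4, 65.1 and 21.7 at day 6, and 27.0, 60.9 and 21.6 at day 7. In iPSC it was 36.2 and 39.7. At days 4 to 7 the genotypes did not overlap: KO lay at 39.3 to 65.1 FPKM, WT at 27.0 to 36.0 and KI at 21.6 to 22.3. KO and WT were close at day 4, and the share of all genes without overlap was not counted. Mlx rose in KO against WT over these days by 0.81 ± 0.20 (log2, SE, adjusted p = 0.0362), 1 of 7 genes against 14.7% of all genes. With upper-quartile scaling it was 0.65 (adjusted p = 0.0318), and without WT MEF and WT day 4 it was 1.04 (adjusted p = 0.0112). Those fits called 1741 of 13837 and 5317 of 13846 genes in all. The call was lost without day 6 (0.63, adjusted p = 0.298) and without day 7 (0.65, adjusted p = 0.295). Of all genes, 24 and 50 were called in those fits, against 2037 in the main fit. The Mlx call was also lost without MEF or day 0 (adjusted p = 0.117 each) and with no filter (adjusted p = 0.0515). There 206, 211 and 1812 of all genes were called. The change of the KO difference from early to late stages was 0.98 ± 0.32 (adjusted p = 0.149), and 1.33 without day 4 (adjusted p = 0.00133). For this change 11 of 13837 genes were called in the main fit and 6607 of 13738 without day 4, so passing there is not particular to Mlx. In KI against WT Mlx differed by -0.45 ± 0.20 (adjusted p = 0.206), lower at 3 of 3 stages.

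Other measures moved in the KO libraries of days 6 and 7 beside Mlx, and their part in its rise was not tested. Pluripotency markers summed to 1068 and 1664 FPKM there, against 54.5 and 149 in WT, the fibroblast sum was lower in KO than in WT at both days, and the macrophage sum was lower in KO at all 3 late stages. Psmc3ip, a gene on the opposite strand that overlaps Mlx, was at 9.02 and 11 FPKM in KO against 4.49 and 4.48 in WT, and at 14.6 and 17.7 in iPSC. The libraries were stranded, but the sources used here do not say whether the counting used the strand, so reads in the overlap cannot be assigned.

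Mlxip (ENSMUSG00000038342, chr5:123394798-123457932), the glucose-responsive partner, changed least of the 7 from library to library. It ran from 5.79 FPKM in WT day 4 to 8.58 in WT day 6. In MEF it was 7.12, 6.94 and 6.88 and at day 0 it was 6.78, 6.14 and 6.56, so that it was slightly lower in all 3 genotypes while Txnip rose. Its later values were 5.79, 6.55 and 7.25 at day 4, 8.58, 6.12 and 7.27 at day 6, 7.80, 6.34 and 6.35 at day 7, and 7.54 and 7.91 in iPSC. Mlxip was called in none of the tested comparisons. In KO against WT over days 4 to 7 its difference was -0.18 ± 0.13 (adjusted p = 0.363). The difference passed without the day 4 libraries (-0.34, adjusted p = 0.0156) and without WT MEF and WT day 4, the 2 libraries with Xist at 46.9 and 48.0 FPKM (-0.35, adjusted p = 0.0342). Those fits called 7705 of 13738 and 5317 of 13846 genes in all. Mlxipl, the third partner, was between 0 and 1.06 FPKM in all 17 libraries, highest in KO iPSC. In KI against WT, Mlxip and Arrdc2, which hold the miR-203 sites shown above, were each lower at 2 of 3 late stages. Of the genes with no site found, Txnip was lower at 2 of 3, and Arrdc1 and Mlx at 3 of 3. Arrdc3 and Arrdc4, also with no site found, were higher at 3 of 3. The differences were -0.064 for Mlxip (adjusted p = 0.785) and -0.22 for Arrdc2 (adjusted p = 0.447), against a median of -0.160 over all genes.

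**Figure D4:**
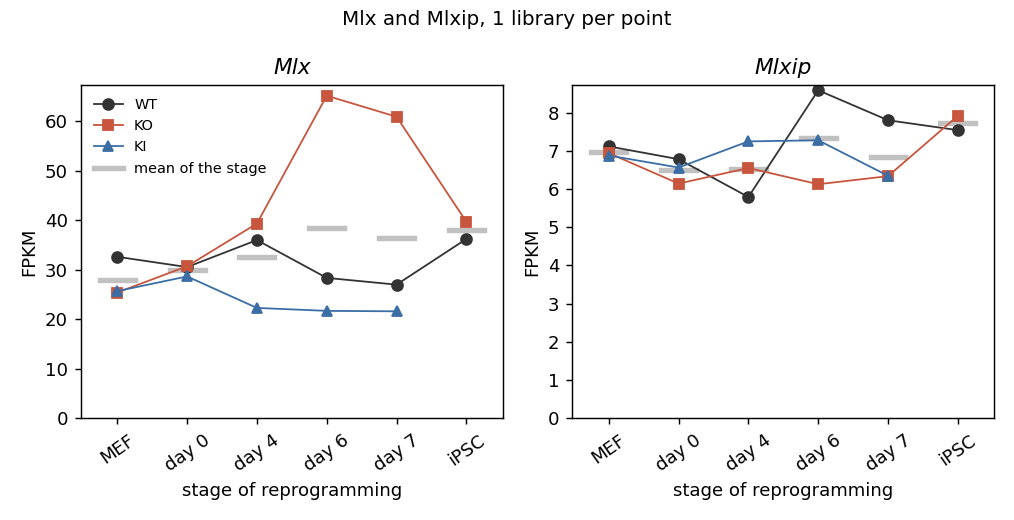
Levels of Mlx and Mlxip (FPKM, linear axes from 0) by stage, 1 point per library, grey bars for the mean of a stage. Mlx in KO was close to WT at day 4 (39.3 and 36.0 FPKM). At days 6 and 7 it was at 65.1 and 60.9 FPKM in KO against 28.4 and 27.0 in WT. Mlxip stayed between 5.79 and 8.58 FPKM in all 17 libraries.

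**Figure D5:**
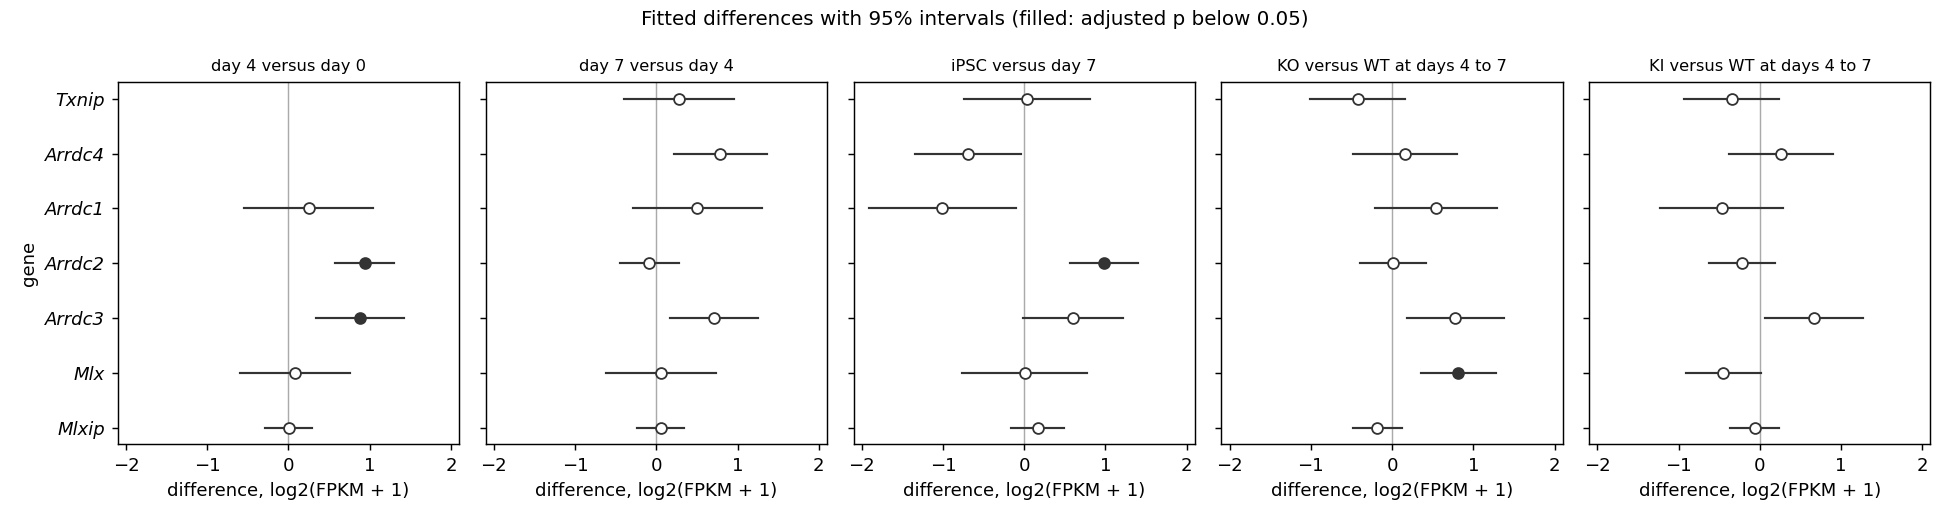
Fitted differences on the log2(FPKM + 1) scale with 95% intervals from limma, filled where the adjusted p was below 0.05. Arrdc2 and Arrdc3 passed from day 0 to day 4, Arrdc2 from day 7 to iPSC and Mlx in KO against WT. Txnip and Arrdc4 are left out of the first panel, which shares the day 0 libraries that selected them.

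Other genes of the glucose-sensing and arrestin pathways were counted from lists that were drawn up with earlier results of these libraries known. Their counts are to be read against the share of all genes called. That share was 22.3% from day 0 to day 4 (1756 genes higher and 1426 lower) and 21.4% from MEF to day 7 (1543 and 1507). It was 49.7% from day 7 to iPSC (3649 and 3433), 14.7% in KO against WT at days 4 to 7 (1314 and 723) and 2.44% in KI against WT (101 and 237). Between MEF and day 0, 0 members of the 10 lists were called, the carbohydrate response genes included. Only 0.0492% of all genes were called there, so a count of 0 says little about the lists. Of 14 measured carbohydrate response targets other than arrestins, the difference at day 0 was above 0 in 3, with a median of -0.18 against -0.007 over all genes. From MEF to day 7, 3 of the 14 fell and 0 rose: the lipid synthesis enzymes Fasn (-1.498 ± 0.25, adjusted p = 0.00164), Scd2 (-1.03 ± 0.15, adjusted p = 0.000793) and Acaca (-0.83 ± 0.14, adjusted p = 0.00205). From day 0 to day 4, 1 fell, Rgs16. Between day 7 and iPSC, where 49.7% of all genes were called, 6 rose and 3 fell, with Acacb (3.002 ± 0.27), Hk2 (2.25 ± 0.55) and Tkt (1.90 ± 0.45) higher and Pfkfb3 lower (-1.76 ± 0.16). In KO against WT over days 4 to 7, 4 of 13 rose and 1 fell, against 14.7% of all genes called. Klf10 (1.43 ± 0.20, adjusted p = 0.00672) and Scd1 (1.14 ± 0.15, adjusted p = 0.00529) were among the higher ones. In KI 1 rose (Rgs16) and 1 fell (Khk, fructose kinase, -1.22 ± 0.17, adjusted p = 0.0166).

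The network of Mlx and Max partners held 10 tested genes. From day 0 to day 4 Mxd4 rose (1.45 ± 0.33, adjusted p = 0.00941) and Mycl fell (-1.97 ± 0.29, adjusted p = 0.000714), and both were called the same way from MEF to day 7. Into iPSC, from day 7, 3 rose, among them Mycn (3.01 ± 0.47), and 2 fell, among them Mxd4 (-3.26 ± 0.38), against 49.7% of all genes called. In KO against WT over days 4 to 7, 3 of 9 rose, Myc (1.80 ± 0.47, adjusted p = 0.0413), Mxi1 (0.85 ± 0.19, adjusted p = 0.029) and Mga (0.57 ± 0.14, adjusted p = 0.0377), and 0 fell, against 14.7% of all genes called. Mlx and Mlxip are not in these counts.

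Glucose transporters are the cargo of the pair. Slc2a1 (GLUT1) was at 71.1, 59.1 and 60.3 FPKM in WT, KO and KI MEF and at 46.5, 38.8 and 38.8 at day 0. It was at 13.1, 13.2 and 11 at day 4. Day 7 gave 21.1 for WT, 313 for KO and 13.1 for KI, and iPSC gave 119 and 73.5. Slc2a1 was lower at day 0 than in MEF in all 3 genotypes, and the step did not pass the test, where 0.0492% of all genes were called. Over the 8 facilitative transporters tested, 5 differences between day 0 and MEF were above 0, with a median of 0.046 against -0.007 over all genes. Slc2a3 (GLUT3) was at 4.89 FPKM or less before day 6, and at day 7 its WT, KO and KI values were 15.1, 280 and 0.545, with 277 and 327 in iPSC. Of 8 facilitative transporters, 3 rose from day 0 to day 4 (Slc2a12, 1.34 ± 0.32; Slc2a9, 1.08 ± 0.30; Slc2a8, 0.62 ± 0.18) against 22.3% of all genes called, 1 rose from MEF to day 7, and from day 7 to iPSC 1 rose and 4 fell. In KO and in KI against WT 0 of 8 were called at days 4 to 7, against 14.7% and 2.44% of all genes. Among reported cargo proteins of alpha-arrestins, Egfr rose from MEF to day 7 (0.97 ± 0.31, adjusted p = 0.0463). From day 7 to iPSC Adrb3 and Notch1 rose and Egfr fell, and in KO against WT 2 of 8 rose, Itgb4 (3.04 ± 0.72, adjusted p = 0.0318) and Adrb3 (1.14 ± 0.29, adjusted p = 0.0403). Of all genes, 49.7% were called from day 7 to iPSC and 14.7% in KO against WT.

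In the thioredoxin system, the redox partner of Txnip, 5 of 13 genes fell and 1 rose from MEF to day 7, against 21.4% of all genes called. The largest falls were in Prdx6 (-1.12 ± 0.26, adjusted p = 0.0113) and Txn1, thioredoxin itself (-1.10 ± 0.29, adjusted p = 0.0193). From day 0 to day 4, 3 fell, Txn1 (-1.004 ± 0.29), Txnrd1, thioredoxin reductase (-0.99 ± 0.20), and Prdx6, and 1 rose, Nxn (0.83 ± 0.17). From day 7 to iPSC 1 rose and 2 fell, against 49.7% of all genes called. In KO against WT Txnrd1 rose (0.62 ± 0.11, adjusted p = 0.0158) and Prdx4 fell (-0.78 ± 0.12, adjusted p = 0.00963), and in KI Prdx3 fell (-0.90 ± 0.10, adjusted p = 0.00796).

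The remaining lists, of ligases, other arrestin fold genes, kinase subunits and responsive genes, gave these counts, to be read against the shares of all genes called. Those were 22.3% from day 0 to day 4, 21.4% from MEF to day 7 and 49.7% from day 7 to iPSC. They were 14.7% in KO and 2.44% in KI against WT at days 4 to 7. Of 8 Nedd4 family ligases, Smurf1 (-1.23 ± 0.27) and Smurf2 (-0.82 ± 0.15) fell from day 0 to day 4, Smurf2 fell from MEF to day 7, Wwp2 rose from day 7 to iPSC, and Smurf1 and Nedd4l rose in KO. Of 7 other arrestin fold genes, 2 fell from day 0 to day 4, Vps26a (-1.03 ± 0.16) and Dscr3 (-0.44 ± 0.14). From MEF to day 7 Arrb1 rose (1.19 ± 0.36) and the same 2 fell, from day 7 to iPSC 1 rose and 3 fell, and in KO Arrb2 fell (-1.497 ± 0.36, adjusted p = 0.0321). Of 6 subunits of the AMP-activated kinase, which phosphorylates Txnip, 2 fell from day 0 to day 4 and 3 fell from MEF to day 7, Prkag2 (-1.48 ± 0.31), Prkab2 (-0.98 ± 0.16) and Prkaa1 (-0.58 ± 0.18). In KO against WT 3 of 6 rose, with Prkaa2 at 1.82 ± 0.29 (adjusted p = 0.0108), against 14.7% of all genes called, and 1 rose from day 7 to iPSC, against 49.7%. Of 9 glucocorticoid-responsive genes, 2 rose and 2 fell from day 0 to day 4, with Cebpd at 2.38 ± 0.31 and Sgk1 at -2.84 ± 0.33. From MEF to day 7 1 rose and 1 fell, from day 7 to iPSC 4 rose and 2 fell, and in KO 3 of 8 rose and 1 fell. Of 13 FOXO-responsive genes, 5 rose and 0 fell from day 0 to day 4, against 22.3% of all genes called, with Sesn3 (1.83 ± 0.31, adjusted p = 0.00197), Sesn1 (1.39 ± 0.28, adjusted p = 0.00457) and Foxo3 (1.25 ± 0.13, adjusted p = 0.000106). From MEF to day 7, 7 rose and 1 fell, with a median of 0.69 against -0.03 over all genes. From day 7 to iPSC 1 rose and 6 fell, with Pik3ip1 at -2.84 ± 0.28. In KI 1 rose, Fbxo32 (1.35 ± 0.26, adjusted p = 0.0413), and in KO 0 of 13 were called. From day 4 to day 7, and in the early genotype comparisons, 0 members of the 10 lists were called. Of all genes, 0.0211% were called from day 4 to day 7, and 0.0506% (KO) and 0.289% (KI) in the early comparisons.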

How the data were processed

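The 17 libraries came from poly(A) RNA with a strand-marking kit, per the labels' protocols. The submitters' processing notes name Cufflinks 2.2.1, TopHat2 2.0.10, SAMtools 0.1.16, Bowtie 1.0.0 and FastQC, and as builds mm10 and GRCm38. The values are FPKM as deposited by the authors, 1 per gene and library. How libraries were scaled to each other, and which annotation was used, are not stated in those notes. Read depth is unknown, so no counting interval was computed.

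The 41 lines that repeat 1 of 19 gene identifiers were summed. limma 3.58.1 (R 4.3.3) was fitted to log2(FPKM + 1) of all genes whose mean FPKM was 1 or more, with a variance trend, 2-sided tests and Benjamini-Hochberg adjustment over all genes tested. A gene was called at an adjusted p below 0.05. Stages were compared with genotype as a term (14240 genes). Genotypes were compared over 15 libraries with stage as a term and separate early and late differences (13837 genes). The model was tested on simulated data. The p-values measure the spread between single libraries of a time course. Whether the libraries of a genotype came from 1 culture is not stated, and those of WT differed in Xist and Ddx3y. The day 0 versus MEF contrast chose Txnip and Arrdc4, so it was not tested for any of the 7 genes. Contrasts sharing the MEF or day 0 libraries were tested for the other 5 only.

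The genes, gene lists and markers were chosen with earlier results of these data known. Named list genes are at most 4 called members per list and comparison by size of difference, and the 5 genes closest to Txnip and to Arrdc4. One cargo gene that passed this rule is not reported here. Levels of transporters and overlapping genes were added for their relation to the 7 genes. Positions and coding sequences are from GENCODE M21, to which 96.6% of identifiers matched, and alignments used Biopython 1.88 with BLOSUM 62. Alternatives changed the pseudocount to 0.1, the filter to none or 5, the scaling, the variance model, the libraries and the terms.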

Additional observations from a re-analysis of the deposited data

How the results depend on the processing

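Of 120 alternative counts of called genes, 97 were within 1.5 times the count reported. Most of these 97 set 0 against 0, in comparisons where none of the 7 genes was called. Where a gene was called, the count held in 5 of 12 alternatives from day 0 to day 4 and 10 of 12 from MEF to day 7. It held in 6 of 12 from day 7 to iPSC and in 5 of 12 in KO against WT at days 4 to 7. Of 309 alternative values of 26 single-gene results, 278 kept their direction and their side of the threshold. The cause of the changes listed here was not tested, except where fewer libraries or genes entered. From day 0 to day 4, where 2 of 5 genes were called, the count was 1 with a filter at 5 (Arrdc2 is below it), without the late KI libraries, without WT MEF, day 4 and iPSC, and with no genotype term, and 0 to 1 when 1 genotype was left out. From MEF to day 7 it was 1 with the filter at 5 and 0 to 2 with 1 genotype left out. From day 7 to iPSC, where 1 was called, it was 0 with the filter at 5, 3 with upper-quartile scaling, 2 with quantile normalization, without the late KI libraries or with no genotype term (Arrdc4, adjusted p = 0.0457), and 1 to 2 with 1 genotype left out. In KO against WT at days 4 to 7, where 1 was called, it was 0 with no filter, 2 without the WT libraries of MEF and day 4 (Mlx and Mlxip), and 0 to 4 with 1 stage left out. Over all genes, those fits called 1812 of 25128, 5317 of 13846 and, with 1 stage left out, from 24 to 7705 genes. The change of the KO difference between early and late stages had 0 to 1 called with 1 stage left out. The Txnip difference between day 7 and iPSC, 0.03, became -0.15 with upper-quartile scaling, -0.17 with quantile normalization and -0.21 without the late KI libraries, and ran from -0.42 to 0.74 with 1 genotype left out (-0.42 without KO, -0.21 without KI). The Arrdc1 difference from day 4 to day 7 ran from -0.030 (without KO) to 0.95 with 1 genotype left out. The 5 genes closest to Txnip shared 3 with those found over the 15 libraries before iPSC and 4 with those at a pseudocount of 0.1, and for Arrdc4 3 and 5. Read depth is unknown, so what it limits for genes near 1 FPKM, such as Arrdc2 and Arrdc4 in MEF, could not be given. A fit with a replicate number as a block could not be made, since the labels give none. The fits already match libraries, with genotype as a term for stages and stage as a term for genotypes, and without the genotype term the Arrdc3 difference from day 0 to day 4 had an adjusted p of 0.0909.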
